A study of Homo sapiens with 10 samples.

Results

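The genes described here were *TRPS1* and 9 other transcription factor genes of luminal breast epithelium, namely *GATA3*, *FOXA1*, *SPDEF*, *ELF3*, *TFAP2A*, *TFAP2C*, *GRHL2*, *KLF4* and *KLF5*. They were chosen by symbol, and all 10 were present among the 19695 genes with a count in either RNA-seq table. The study asked what the atypical GATA factor TRPS1 does to gene expression in breast cancer cells and whether it acts through CHD4, the ATPase of the NuRD chromatin remodelling complex. T47D, an established human breast cancer cell line of luminal type that expresses the oestrogen receptor, was transfected for 72 h with control siRNA, with siRNA against *TRPS1* or with siRNA against *CHD4*, and 2 RNA-seq libraries were made for each. Chromatin of T47D cells was also immunoprecipitated with TRPS1 antibodies in 2 libraries beside 2 input libraries, which gave 1 list of 1844 peaks. The labels do not say whether the libraries came from separate cultures, so the spread between them may be technical.

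Luminal identity in the breast is held by a small network of DNA-binding proteins. GATA3 directs the differentiation of luminal cells, and FOXA1 is a pioneer factor that opens chromatin for the oestrogen receptor. TRPS1 has a GATA-type zinc finger, as GATA3 has, but is known mainly as a repressor. SPDEF and ELF3 are epithelial ETS factors, TFAP2A and TFAP2C encode AP-2α and AP-2γ, GRHL2 keeps genes of epithelial junctions active, and KLF4 and KLF5 are Krüppel-like zinc finger proteins of epithelia.

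The RNA-seq libraries held 10333138 to 14668358 counts, so that 3 counts, taken as the limit of detection, were worth 0.197 to 0.288 CPM, the counts of a gene scaled to a fixed library total. Levels below are CPM scaled by TMM factors over all 6 libraries. Control siRNA replicate 1 stood apart from the other libraries. Its Pearson r with them, on log2 CPM over 13269 genes, was 0.857 to 0.880, against 0.942 to 0.976 among the other 5 libraries. Relative to control siRNA replicate 2, its levels were also related to gene length (Spearman rho of -0.293 over 12347 genes, against -0.053 to 0.00421 in the other libraries). The 10 genes are therefore plotted against control siRNA with and without each control library, and values without this library are given beside the results it moves most. A fit without 1 library takes its spread from the other group alone. Calls in such a fit are therefore not like those from all 4 libraries. Of 14 luminal markers, 13 were over 2 CPM in every library. Their summed level was 9310 to 14000 CPM in control siRNA, 5390 to 5480 CPM in *TRPS1* siRNA and 4480 to 5250 CPM in *CHD4* siRNA libraries, a difference carried by *KRT8*, *KRT18* and *KRT19*, the keratins of simple epithelia. Of 13 basal or mesenchymal markers, 3 were over 2 CPM in every library, namely *FN1* (160 to 244 CPM), *ACTA2* (12.7 to 28.2 CPM) and *MYLK* (9.77 to 18.2 CPM), while *KRT5*, *KRT14* and *KRT17*, the keratins that define basal cells, had at most 8 counts. This list summed to 250 to 284 CPM in control, 252 to 255 CPM in *TRPS1* and 235 to 242 CPM in *CHD4* siRNA. Of 8 markers of blood, vessels or fibroblasts, 4 had at most 3 counts in every library, *PTPRC*, *PECAM1* and *DCN* among them. *VWF* had at most 15 counts, *CD68* 20 to 76 counts, and the collagen gene *COL1A1* was well detected at 59.3 to 157 CPM. The 8 summed to 65.7 to 158 CPM in control, 86 to 110 CPM in *TRPS1* and 66.7 to 94.7 CPM in *CHD4* siRNA, and the part of any marker list in the results was not tested.

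*TRPS1*, the silenced gene and the one that gives the study its name, was lowest in the *TRPS1* siRNA libraries. Its level was 1448 and 2274 CPM in control siRNA replicates 1 and 2, 1169 and 723 CPM in *TRPS1* siRNA, and 2455 and 1591 CPM in *CHD4* siRNA. Both *TRPS1* siRNA libraries lay below both control libraries, and the nearest values, 1169 and 1448 CPM, were closer together than the control libraries were to each other. The log2 fold change was -0.97 (SE 0.39, 95% interval -1.92 to -0.02), with an unadjusted p of 0.0459 and an adjusted p of 0.659 in edgeR's quasi-likelihood test. The silenced gene thus fell just short of the study's threshold, a fold change over 2 with unadjusted p under 0.05. Without control siRNA replicate 1 its log2 fold change was -1.26 (unadjusted p = 0.00266), and without control siRNA replicate 2 it was -0.61 (unadjusted p = 0.0908). The counts that remained in the *TRPS1* siRNA libraries, 12160 and 10996, were not near the limit of detection.

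*CHD4*, the other silenced gene, had 301 and 286 CPM in control siRNA, 303 and 269 CPM in *TRPS1* siRNA, and 96.0 and 54.4 CPM in *CHD4* siRNA. Its log2 fold change was -1.96 (SE 0.42, unadjusted p = 0.00186) on *CHD4* silencing and -0.03 (SE 0.31, 95% interval -0.77 to 0.70) on *TRPS1* silencing. These were -1.91 and 0.01 without control siRNA replicate 1. The siRNAs listed by the study for *CHD4* and the control are shown because they define the groups compared, written 5′ to 3′ as RNA. Which of the listed *CHD4* siRNAs was used for RNA-seq was not stated in the sources used here.
Control siRNA: uucuccgaacgugucacgu
CHD4 siRNA #1: cgggaguucaguaccaaua
CHD4 siRNA #2: gggcugcuuacuugaacau

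**Figure D1:**
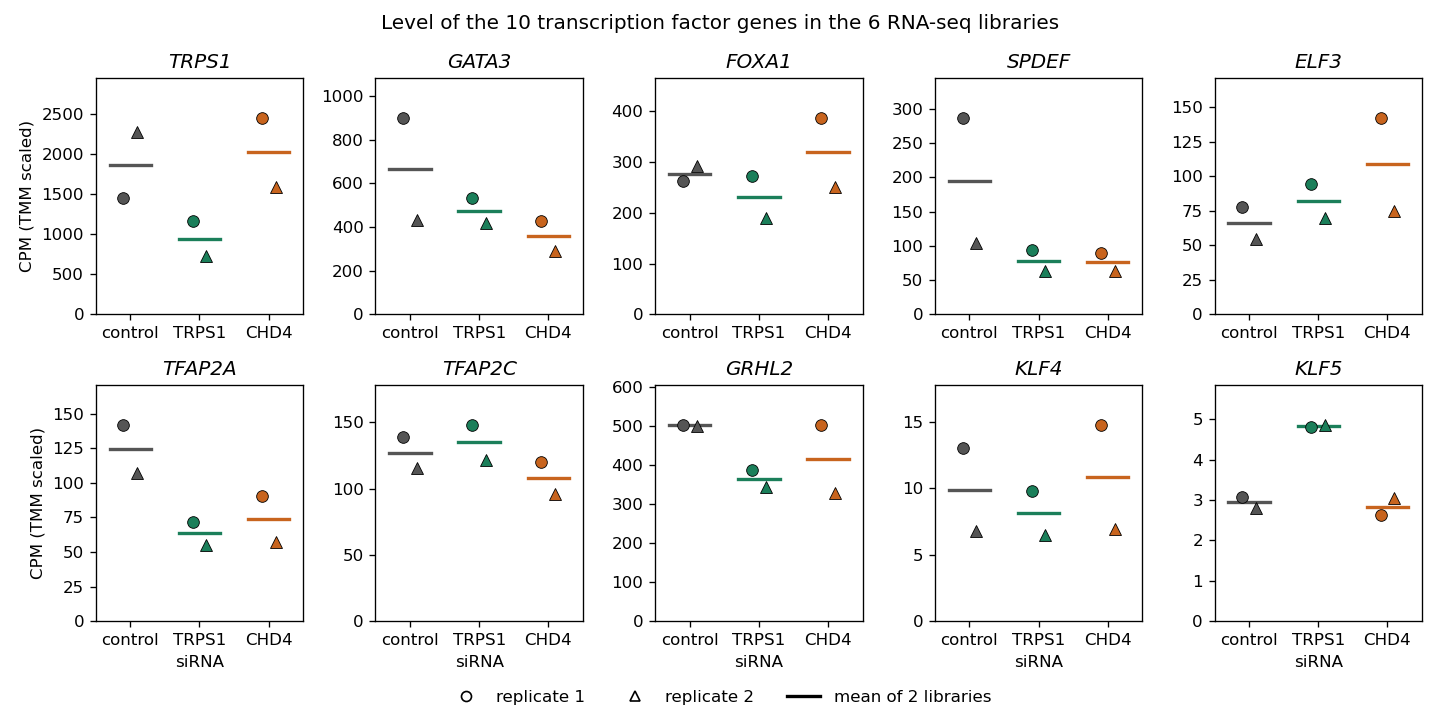
CPM (vertical axes, TMM scaled, starting at 0) of each of the 10 genes in control, *TRPS1* and *CHD4* siRNA libraries. Points are single libraries (circles replicate 1, triangles replicate 2) and bars are means of 2 libraries. *SPDEF* was highest in control siRNA replicate 1 at 287 CPM, and both knockdowns lay between 63.3 and 93.5 CPM.

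On *TRPS1* silencing, 1 of the other 9 genes, *SPDEF*, passed the study's threshold and none passed an adjusted p of 0.05. Lower calls made up 3.17% and higher calls 2.7% of the 12921 genes tested. *TRPS1*, *SPDEF* and *TFAP2A* had unadjusted p under 0.05, all lower, as had 3.97% of all genes. No gene at all passed the adjusted p in this test, with 902 at an unadjusted p under 0.05, while the likelihood ratio test gave 34 genes and DESeq2 39, none of them among the 10. *TRPS1*, *SPDEF*, *TFAP2A* and *GRHL2* were lower in both *TRPS1* siRNA libraries than in either control library, and *KLF5* was higher in both. Such separation was common, since 21.3% of all genes tested were lower without overlap and 22.8% higher. The median log2 fold change of the 10 genes was -0.37, beside -0.02 over all genes tested, and 7 of the 10 values were negative. The median of the 10 was -0.09 and 5 were negative without control siRNA replicate 1, and without control siRNA replicate 2 it was -0.54 and 8 were negative.

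*SPDEF*, an ETS factor of secretory epithelia, had 287 and 104 CPM in control siRNA and 93.5 and 63.3 CPM in *TRPS1* siRNA. The control libraries differed by 2.77 times, more than the lower control differed from the knockdown libraries. Its log2 fold change was -1.31 (SE 0.54, 95% interval -2.61 to -0.01, unadjusted p = 0.0485, adjusted p = 0.659). Its size depended most on the control libraries. The log2 fold change was -0.40 without control siRNA replicate 1, no longer past a fold change of 2, and -1.87 without control siRNA replicate 2. The call was also lost without *TRPS1* siRNA replicate 1 (-1.60) or replicate 2 (-1.05), with both values still past a fold change of 2.

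*TFAP2A*, which encodes AP-2α, went from 142 and 107 CPM in control siRNA to 71.8 and 55.2 CPM in *TRPS1* siRNA. The groups did not overlap, and the gap between the nearest libraries was about as wide as that between the control libraries. The log2 fold change of -0.97 (SE 0.35, 95% interval -1.82 to -0.12) had an unadjusted p of 0.0318, the lowest of the 10 genes, and missed the fold change of 2. It was -0.75 without control siRNA replicate 1. *TFAP2C*, its paralogue for AP-2γ, had 139 and 116 CPM in control siRNA and 148 and 122 CPM in *TRPS1* siRNA, so that the groups overlapped. Its log2 fold change was 0.09, with a 95% interval from -0.70 to 0.88, which does not show whether the paralogues differed.

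*GRHL2* was the steadiest gene between the control libraries, at 503 and 501 CPM, and was 386 and 344 CPM in *TRPS1* siRNA. Its log2 fold change was -0.46 (SE 0.30, unadjusted p = 0.179) with all 4 libraries and -0.45 without control siRNA replicate 1. *KLF5* was the least counted gene, with 42 and 37 counts in control siRNA and 50 and 74 in *TRPS1* siRNA. On the CPM scale these were 3.08 and 2.80 against 4.805 and 4.87, a log2 fold change of 0.72 (SE 0.56, unadjusted p = 0.242).

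*GATA3*, the factor that shares the GATA motif with TRPS1, had 901 and 431 CPM in control siRNA and 533 and 418 CPM in *TRPS1* siRNA. The knockdown libraries lay on either side of the lower control library, so that the groups overlapped. The log2 fold change was -0.48 (SE 0.43, 95% interval -1.52 to 0.55, unadjusted p = 0.302). Its sign depended on 1 library, since it was 0.15 without control siRNA replicate 1 and -0.92 without control siRNA replicate 2. The latter fit has as its control only replicate 1, the library that stood apart.

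*FOXA1*, the pioneer factor, had 261 and 293 CPM in control siRNA and 273 and 190.3 CPM in *TRPS1* siRNA, with a log2 fold change of -0.25 (95% interval -1.07 to 0.56). *ELF3*, an ETS factor of epithelial cells, had 77.7 and 54.7 CPM against 94.4 and 69.6 CPM. *KLF4* had 13.0 and 6.81 CPM against 9.80 and 6.51 CPM. In these 3 genes the groups overlapped, and the log2 fold changes of *ELF3* and *KLF4* were 0.31 (95% interval -0.58 to 1.20) and -0.28 (95% interval -1.57 to 1.01).

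**Figure D2:**
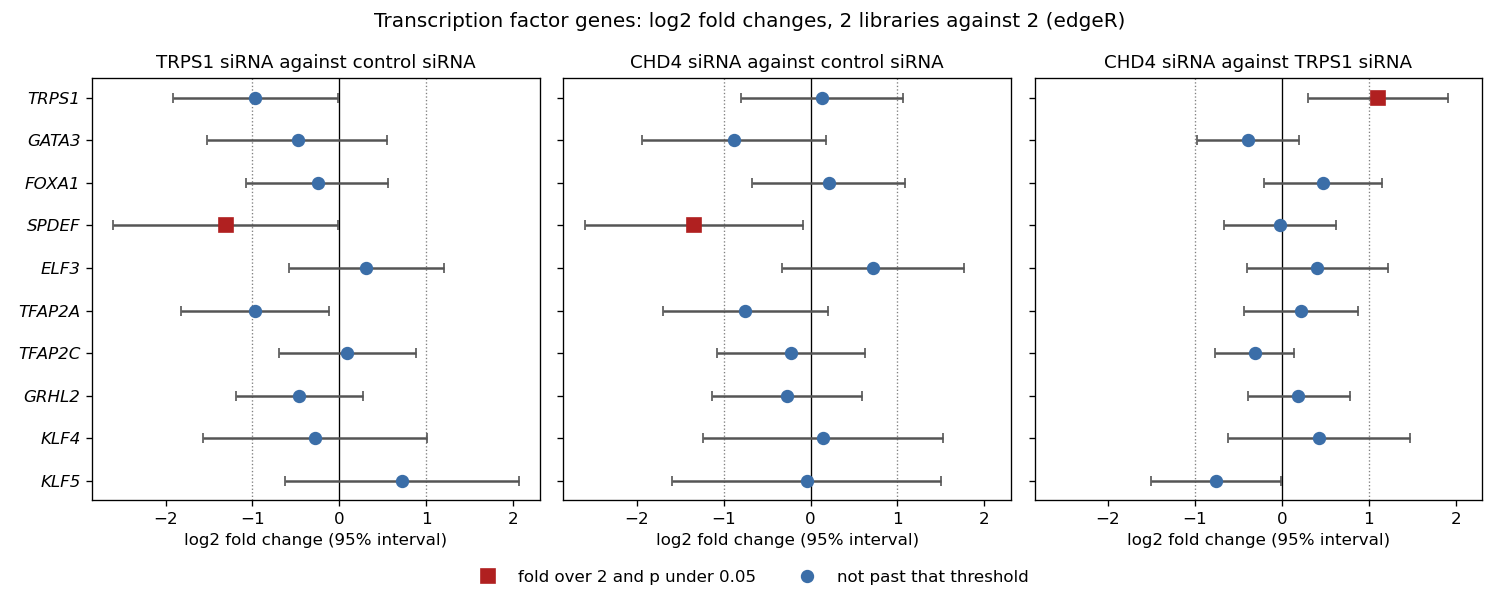
Log2 fold change of the 10 genes (horizontal axes) in the 3 comparisons, with 95% intervals from edgeR's quasi-likelihood fit to 2 libraries against 2 and dotted lines at fold changes of 2. Squares passed fold change over 2 with unadjusted p under 0.05: *SPDEF* in both comparisons with control siRNA and *TRPS1* between the knockdowns.

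On *CHD4* silencing, compared with the same control libraries, *SPDEF* was again the gene among the 10 that passed the study's threshold, and none passed an adjusted p of 0.05. Lower calls made up 2.85% of the 12918 genes tested and higher calls 2.6%. At an adjusted p under 0.05 the quasi-likelihood test called 0 genes, with 769 at an unadjusted p under 0.05, the likelihood ratio test 58 and DESeq2 50, again without any of the 10. *SPDEF*, *GATA3* and *TFAP2A* were lower in both *CHD4* siRNA libraries than in either control library, as were 19.7% of all genes tested. None of the 10 was higher without overlap, beside 20.1% of all genes. The median log2 fold change of the 10 genes was -0.14, and that of all genes tested was -0.02. Since both comparisons use the same control libraries, their values are set side by side and were not tested for likeness.

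*SPDEF* had 90.0 and 63.5 CPM in *CHD4* siRNA, close to its level on *TRPS1* silencing. Its log2 fold change against control was -1.34 (SE 0.53, 95% interval -2.59 to -0.09, unadjusted p = 0.0386, adjusted p = 0.792). Without control siRNA replicate 1 it was -0.41, and without *CHD4* siRNA replicate 1 or 2 it was -1.59 and -1.08, no longer called. *GATA3* was at its lowest in *CHD4* siRNA, at 427 and 292 CPM, but the higher of these nearly equalled control siRNA replicate 2 at 431 CPM. The log2 fold change of *GATA3* was -0.88 (SE 0.46, unadjusted p = 0.0921) with all libraries. It was -0.24 without control siRNA replicate 1 and -1.31 without control siRNA replicate 2.

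*TFAP2A* had 90.2 and 57.2 CPM in *CHD4* siRNA, below both control libraries, with a log2 fold change of -0.75 (SE 0.41, unadjusted p = 0.105). *TRPS1* itself had a log2 fold change of 0.13 on *CHD4* silencing (95% interval -0.80 to 1.06), and its *CHD4* siRNA libraries lay on either side of control siRNA replicate 2. *ELF3* was the gene that leaned upwards most, at 142 and 74.6 CPM, with a log2 fold change of 0.72 (SE 0.45, unadjusted p = 0.150). Without control siRNA replicate 1 the log2 fold change of *ELF3* was 1.00.

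The other 5 genes overlapped between *CHD4* siRNA and control. *FOXA1* had 387 and 251 CPM in *CHD4* siRNA (log2 fold change 0.21, 95% interval -0.67 to 1.09). *GRHL2* had 502 and 327 CPM (-0.27, 95% interval -1.13 to 0.59), so that its replicate 1 stood at the control level and its replicate 2 did not. *TFAP2C* had 120.2 and 95.7 CPM (-0.23, 95% interval -1.08 to 0.63), *KLF4* 14.8 and 6.91 CPM (0.14, 95% interval -1.24 to 1.52) and *KLF5* 2.62 and 3.05 CPM (-0.04, 95% interval -1.59 to 1.50). The value of *KLF5* turned to 0.09 when libraries were scaled by their sizes alone.

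**Figure D3:**
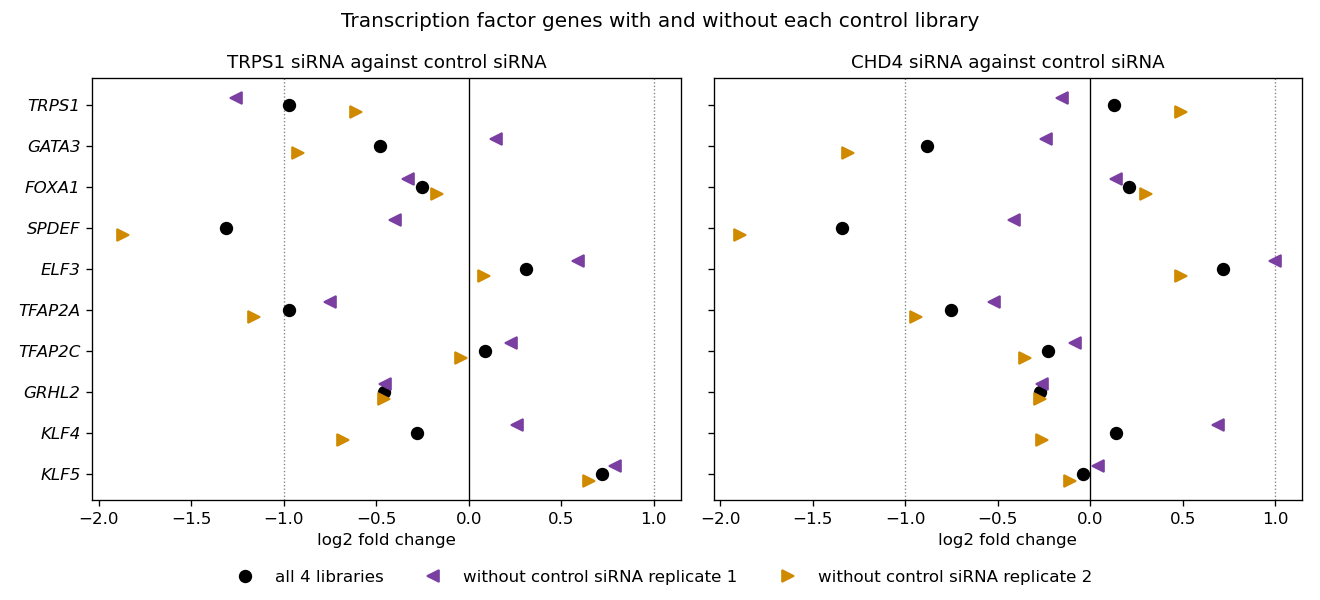
Log2 fold change of the 10 genes (horizontal axes) against control siRNA, with all 4 libraries (circles) and without control siRNA replicate 1 (left-pointing) or replicate 2 (right-pointing triangles). On *TRPS1* silencing *SPDEF* spanned -0.40 to -1.87 and *GATA3* 0.15 to -0.92, while *GRHL2* stayed at -0.45 to -0.46.

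The knockdowns were then compared with each other, which leaves the control libraries out. *TRPS1*, the target of the siRNA in the other group, was higher in *CHD4* siRNA, with a log2 fold change of 1.11 (SE 0.33, 95% interval 0.30 to 1.91, unadjusted p = 0.0152, adjusted p = 0.210). It was the gene of the 10 that passed the study's threshold, beside 2.12% of 13143 genes called higher and 1.56% called lower, and 23.3% of all genes were higher without overlap. *KLF5* was lower in *CHD4* than in *TRPS1* siRNA, at 2.62 and 3.05 against 4.805 and 4.87 CPM. Its log2 fold change was -0.76 (SE 0.31, unadjusted p = 0.0486, adjusted p = 0.320), and it missed the fold change of 2. Unadjusted p was under 0.05 with lower values in 7.33% of all genes. *TFAP2C*, at 120.2 and 95.7 against 148 and 122 CPM, was also lower without overlap, as 23.8% of the genes were (log2 fold change -0.31, 95% interval -0.77 to 0.14).

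For *SPDEF* the knockdowns differed by a log2 fold change of -0.02, with a 95% interval from -0.66 to 0.62. *TFAP2A* and *GRHL2* had intervals from -0.43 to 0.88 and from -0.39 to 0.78. *GATA3* was -0.39 (95% interval -0.98 to 0.20), *FOXA1* 0.47 (95% interval -0.20 to 1.15), *ELF3* 0.41 (95% interval -0.40 to 1.22) and *KLF4* 0.43 (95% interval -0.62 to 1.47). None of these 7 intervals, which treat the libraries as unpaired, excluded a zero difference. With replicate number as a block, *GATA3*, *FOXA1* and *ELF3* of these 7 passed an adjusted p of 0.05 in edgeR's quasi-likelihood test. In that fit 3372 of 13143 genes passed, and no label says that a number marks a shared batch. The count of genes at an adjusted p under 0.05 was 0 in the quasi-likelihood test (2023 at an unadjusted p under 0.05), 570 in the likelihood ratio test and 456 in DESeq2, and both of the latter included *TRPS1*.

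Within the knockdown groups the 10 genes differed between libraries in 1 direction. In *TRPS1* siRNA 9 of 10 were higher in replicate 1 than in replicate 2, all but *KLF5*, with a median ratio of 1.33. In *CHD4* siRNA the same 9 were higher in replicate 1, with a median ratio of 1.54 and the largest, 2.14, in *KLF4*. In control siRNA 8 were higher in replicate 1 (median ratio 1.26), the exceptions being *TRPS1* and *FOXA1*. Over all genes 48.9 to 51.8% were higher in replicate 1, with median ratios of 0.978 to 1.01. This is a description of single libraries, and its part in the differences between groups was not tested.

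The families of the 10 genes were read from the same fits. Of the 7 GATA-type genes listed, *GATA1* had at most 8 counts, and 6 were tested. None passed the threshold in either comparison with control. *GATA2* and *GATA5* had log2 fold changes of -0.64 (SE 0.57) and -1.04 (SE 0.72) on *TRPS1* silencing. These were 0.41 and 0.37 without control siRNA replicate 1, the same turn of sign as in *GATA3*. They were -1.24 and -1.75 without control siRNA replicate 2, a fit whose control is the library that stood apart. *FOXA3* had at most 4 counts and *FOXA2* was not in the tables, which leaves *FOXA1* as the tested FOXA gene. Among the AP-2 genes *TFAP2B* had at most 32 counts and *TFAP2D* was not in the tables. *TFAP2E* had 80 and 8 counts in control siRNA, 22 and 48 in *TRPS1* siRNA and 19 and 26 in *CHD4* siRNA, so that its control libraries lay on either side of all 4 knockdown libraries. On *TRPS1* silencing its log2 fold change was -0.29 (SE 1.02), 2.13 without control siRNA replicate 1 and -1.13 without control siRNA replicate 2. Without control siRNA replicate 1 it reached the 2 CPM needed for testing through the *TRPS1* siRNA libraries alone, so that 2.13 is a description.

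Of the epithelial ETS factors, *EHF* and *ELF5* did not pass the threshold in any comparison. *EHF* was lower in *CHD4* than in *TRPS1* siRNA by a log2 fold change of -0.68 (SE 0.23, unadjusted p = 0.0235). In the grainyhead family *GRHL3*, a factor of surface epithelia, had 106 and 53 counts in control siRNA, 10 and 25 in *TRPS1* siRNA and 6 and 21 in *CHD4* siRNA. It passed the filter of 2 CPM through the control libraries alone, so that its log2 fold changes of -2.15 (SE 0.69) and -2.36 (SE 0.82) are descriptions. It fell under that filter without control siRNA replicate 1. None of the 13 tested KLF genes passed in any comparison with all libraries. When control siRNA replicate 1 was left out, *KLF15* was 1.43 on *TRPS1* silencing, against 0.85 with all libraries, on 27 to 81 counts over the 6 libraries. The control library left then had 27 counts. *KLF15* thus passed the filter through the *TRPS1* siRNA libraries alone, and 1.43 is a description. Without control siRNA replicate 2, *KLF12* was 1.73 and *KLF16* -1.41 on *TRPS1* silencing, against 0.78 and -0.92 with all libraries. The control left in that fit is the library that stood apart. *KLF10*, *KLF11* and *KLF16* had the lowest unadjusted p between the knockdowns, with log2 fold changes of 0.69 (SE 0.16), 0.67 (SE 0.15) and 0.75 (SE 0.22), higher in *CHD4* siRNA.

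Among 13 other regulators of luminal cells, 2 were called lower and none higher on *TRPS1* silencing, beside 3.17% and 2.7% of all genes, and 2 lower and none higher on *CHD4* silencing, beside 2.85% and 2.6%. *XBP1*, the factor of the unfolded protein response that luminal cells express strongly, had 1388 and 1372 CPM in control siRNA, 742 and 604 in *TRPS1* siRNA and 876 and 464 in *CHD4* siRNA. All 4 knockdown libraries lay below both controls, and its log2 fold change was -1.03 in both comparisons (SE 0.31 and 0.41, unadjusted p = 0.0135 and 0.0370). Without control siRNA replicate 1 it was -1.02 and -1.01. *CBFB*, the partner subunit of RUNX proteins, had 42.4 and 81.1 CPM in control, 24.7 and 27.1 in *TRPS1* siRNA and 55.0 and 82.6 in *CHD4* siRNA.

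*CBFB* was called lower on *TRPS1* silencing (log2 fold change -1.25, SE 0.43, unadjusted p = 0.0259) and higher in *CHD4* than in *TRPS1* siRNA (1.41, SE 0.23, unadjusted p = 0.000942, adjusted p = 0.101). On *TRPS1* silencing *CBFB* was -1.64 without control siRNA replicate 1, and without control siRNA replicate 2 it was -0.71, short of a fold change of 2. *OVOL2*, a repressor of mesenchymal genes, was called lower on *CHD4* silencing (-2.33, SE 0.68) and between the knockdowns (-1.33, SE 0.43), at 1.22 and 2.65 CPM in *CHD4* siRNA. Without control siRNA replicate 1, 9 of the 13 were negative on *TRPS1* and 8 on *CHD4* silencing, beside 6212 of 12781 and 6273 of 12792 genes. On *TRPS1* silencing *RUNX1* was then -1.04, and -0.66 without control siRNA replicate 2. *PGR* was -1.27 and 0.35 in these fits. *ZNF750*, on 23 to 103 counts, was -0.59 and 1.61 in them, and -0.23 and 1.96 on *CHD4* silencing.

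Of the luminal markers, 2 of 14 tested (*KRT8* and *KRT19*) were called lower on *TRPS1* silencing and 3 of 13 (*KRT8*, *KRT18* and *KRT19*) on *CHD4* silencing, with log2 fold changes between -1.39 and -1.88, beside 3.17% and 2.85% of all genes. None was called higher with all libraries. Without control siRNA replicate 2, *AGR3* was 1.87 and 2.18 on *TRPS1* and *CHD4* silencing (0.40 and 0.71 with all libraries). The control left in those fits is the library that stood apart. In those fits *MLPH* was -1.12 and -1.55, *TFF3* -1.27 and -1.40 and *KRT8* -2.17 and -2.13. Without control siRNA replicate 1, *KRT8* was -1.52 and -1.49, while *KRT19* was -0.97 on *TRPS1* silencing, short of a fold change of 2. On *CHD4* silencing *KRT18*, *KRT19* and *AGR2* were then -1.12, -1.01 and -1.02. The basal or mesenchymal markers did not all go 1 way, with 2 of 6 tested negative on *TRPS1* and 2 of 5 on *CHD4* silencing. *ACTA2*, a smooth muscle actin of basal cells, was 0.88 and 0.91 with all libraries and 1.01 and 1.05 without that library. *TWIST1* was -0.89 and -1.60 with all libraries and 0.02 and -0.69 without that library. *TP63*, a basal marker that the study singled out, had 27 and 25 counts in control, 148 and 88 in *TRPS1* siRNA and 267 and 92 in *CHD4* siRNA. It passed the filter through the knockdown libraries alone, so that its log2 fold changes of 2.36 and 3.06 (2.39 and 3.10 without control siRNA replicate 1) are descriptions. Likewise *TFF1*, at 2.79 and 3.03 CPM in *TRPS1* siRNA and 0.281 and 0.884 CPM in *CHD4* siRNA, and *VIM*, at 17.3 and 2.24 against 1.12 and 1.45 CPM, passed through the *TRPS1* siRNA libraries alone when the knockdowns were compared.

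Genes whose levels followed *TRPS1* or *GATA3* over the 6 libraries were listed by Pearson r of log2 CPM among 11441 genes. *MXD1* (r = 0.992), *COA7* and *SLC9A2* were most like *TRPS1*, and *RNPC3* (r = -0.989), *SOGA1* and *DEPDC5* were most opposed. *MLPH* (r = 0.996), itself on the list of luminal markers, *NDST2* and *ZNF764* were most like *GATA3*, and *PLIN2* (r = -0.993), *SOD2* and *ZNF680* most opposed. Of these, 1 gene of the *TRPS1* list (*RNPC3*) and 0 of the *GATA3* list recurred when control siRNA replicate 1 was left out. Among the 10 genes themselves, *FOXA1* (r = 0.89) and *KLF5* (r = -0.90) followed *TRPS1* most closely in either direction, with r of 0.89 and -0.92 without that library. *SPDEF* followed *GATA3* most closely with all libraries (r = 0.92, and 0.66 without that library) and *TFAP2C* without it (r = 0.97, and 0.81 with all libraries), while *TRPS1* and *GATA3* had an r of -0.10. The points share their libraries and groups, so these values are descriptions.

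The TRPS1 peaks were then placed on the 10 genes with positions in hg38 and RefSeq genes of GRCh38.p14. Of the 10 genes, 9 had at least 1 of the 1844 peaks in the gene or within 100 kb of its ends, 20 peaks in all, beside 20.5% of 20037 protein-coding genes. *TRPS1*, *FOXA1*, *TFAP2A* and *GRHL2* had at least 2, beside 4.69% of all genes. *SPDEF* had none, and its nearest peak lay 163.3 kb downstream of its start. The 20 peaks had a median width of 386.5 bp, against 288.0 bp for all peaks. Within 10 kb of the genes there were 6 peaks at 5 of the 10 (6.6% of all genes), within 50 kb 14 peaks at 6 (13.3%), and within 250 kb 28 peaks at all 10 (35.6%). The peak list gives no score and is 1 list for the ChIP libraries, so no peak has a replicate error.

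*TRPS1* had a peak of 470 bp over its own start site and 8 more upstream within 250 kb. They lay 2.01, 22.3, 24.6, 169.7, 170.2, 186.1, 197.7 and 227.7 kb from the start, and the farthest was the widest at 1097 bp. A window of 250 kb held as many peaks or more at 7 of the 20037 genes, *TRPS1* included. In the main window of 100 kb it had 4 peaks, and 75 genes had as many or more. Apart from the peak over the start none lay inside the gene body, which is 260480 bp long.

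*FOXA1* had the most peaks of the 10 genes within 100 kb, 5 in all, and 34 of 20037 genes had as many or more. Within 250 kb it had the same 5 peaks, and 142 genes had as many or more. The nearest, at chr14:37596061-37596467, lay 812 bp upstream of the gene start. Another lay 46.0 kb upstream (chr14:37641224-37641527), and the others lay 27.8 kb (chr14:37566945-37567490), 47.7 kb (chr14:37546680-37547517) and 65.3 kb (chr14:37529756-37529975) downstream of the start, beyond the end of this 5698 bp gene. All 5 are nearer to *MIPOL1* or *TTC6* by gene span, so that counting by nearest gene gives *FOXA1* 0 peaks.

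**Figure D4:**
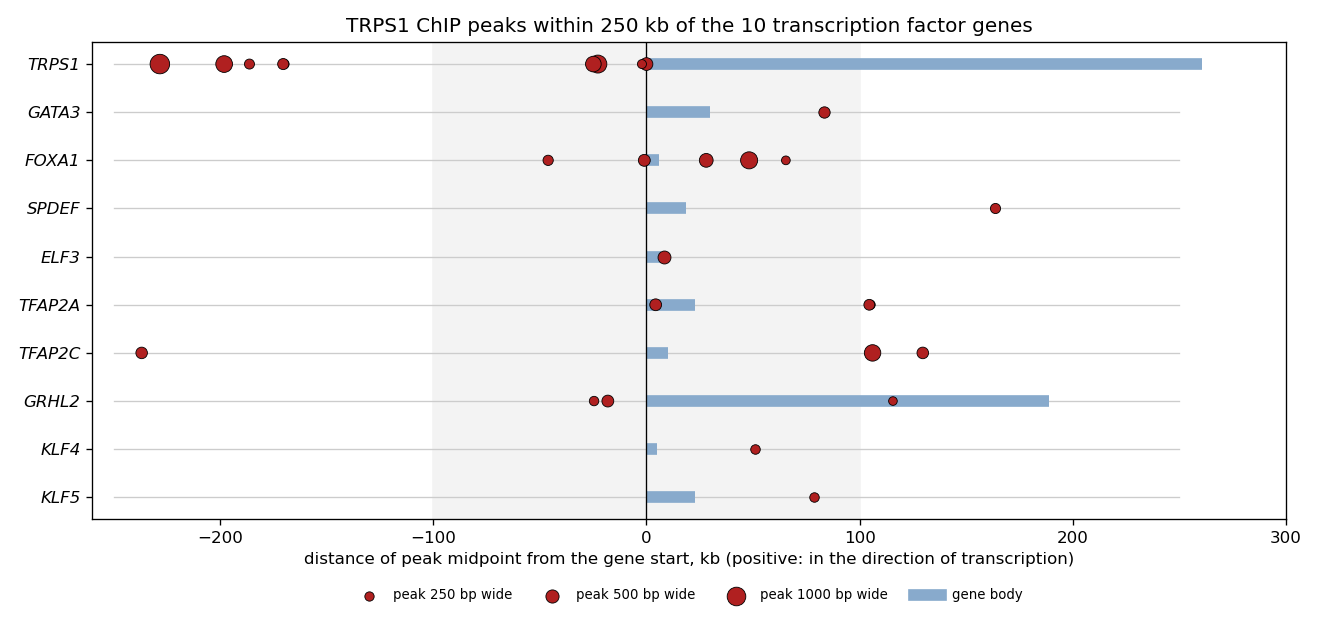
TRPS1 ChIP peaks within 250 kb of the 10 genes, by distance of the peak midpoint from the gene start in kb (positive in the direction of transcription). Circles are peaks with area by width, blue bars gene bodies and the grey band 100 kb around the start. *TRPS1* had 9 peaks in this range, 8 of them upstream, and *FOXA1* 5.

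*TFAP2A* had 1 peak inside the gene, 4.11 kb from its start (chr6:10415146-10415546), and another 2 beyond its end, 104.3 and 105.1 kb from the start. *GRHL2* had peaks 17.9 and 24.5 kb upstream and 1 inside the gene at 115.5 kb. The remaining genes had 1 peak each within 100 kb. That of *ELF3* (chr1:202018476-202018957) lay 1293 bp beyond the end of the gene. Those of *KLF4* (chr9:107438598-107438860), *KLF5* (chr13:73133616-73133876), *GATA3* (chr10:8128475-8128846) and *TFAP2C* (chr20:56734969-56735747) lay 50.9, 78.6, 83.1 and 105.7 kb downstream of the start.

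Counting each peak to the protein-coding gene whose span lies nearest gave 41 peaks at 8 of the 10 genes, where 7.15% of all genes had any. *GATA3* had 14, more than any other gene, and *TRPS1* had 13, the next highest count. The peaks of *GATA3* were all downstream, and 12 of the 14 lay 906 to 1182 kb from its start in a long interval without another protein-coding gene. The other 2 lay 83.1 and 499 kb away. Of the 13 at *TRPS1*, 11 were upstream, up to 417 kb away. A count by nearest gene favours genes with empty surroundings, and no deposited value ties a peak at such a distance to the gene.

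**Figure D5:**
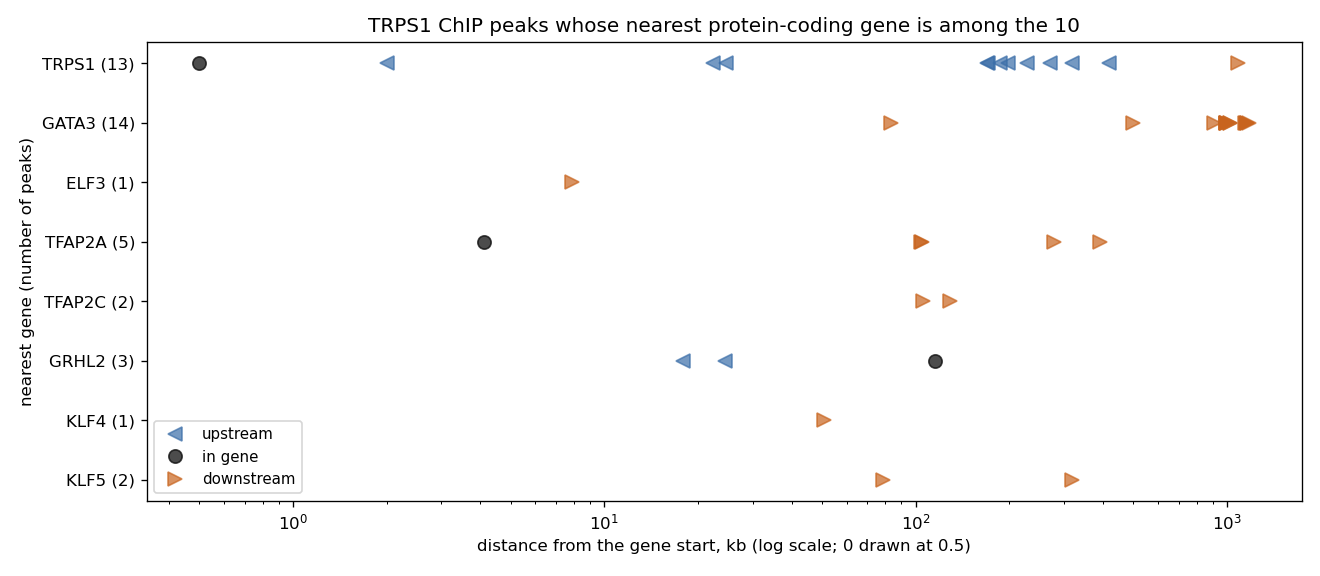
Distance in kb (log axis) from the gene start of each of the 41 TRPS1 peaks whose nearest protein-coding gene is among the 10, by gene with its number of peaks, upstream, inside or downstream. The *GATA3* peaks gather 906 to 1182 kb downstream, and those of *TRPS1* lie mainly upstream, up to 417 kb.

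Promoter sequences from RefSeq (GRCh38.p14, 250 bases before to 50 after each annotated start) were matched by symbol for 7 of the 10 genes, with 14 windows in all. *TRPS1*, *GRHL2* and *TFAP2C* had no entry. No peak overlapped any of the 14 windows. The usual forms of the site bound by GATA proteins, which are AGATAA as well as AGATAG, and with the other first base TGATAA as well as TGATAG, were searched on both strands. They occurred in 1 of the 14 windows, at a start of *KLF5*, and in 25.0% of 35116 windows of all genes. The bare core GATA, again on both strands, occurred within the 250 bases before the start in 3 of the 14 windows and in 45.6% of all windows. Some genes, *GATA3* above all, have several of the 14 windows, and by gene the core occurred in 2 of 7. The windows are thus not separate genes, and their shares are descriptions.

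The 250 bases before the start of *FOXA1* (chr14:37595250-37595499, minus strand) and before the inner start of *TFAP2A* (chr6:10412392-10412641, minus strand) are shown 5′ to 3′ because they are the windows that came closest to a peak, at 562 and 2505 bp. Neither holds a GATA core, so no base is in capitals.
FOXA1 upstream: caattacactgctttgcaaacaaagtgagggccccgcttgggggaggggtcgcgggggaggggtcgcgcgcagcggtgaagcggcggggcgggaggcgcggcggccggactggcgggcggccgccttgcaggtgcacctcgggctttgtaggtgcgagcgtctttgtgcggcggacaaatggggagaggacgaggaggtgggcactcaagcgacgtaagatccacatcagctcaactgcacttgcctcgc
TFAP2A upstream: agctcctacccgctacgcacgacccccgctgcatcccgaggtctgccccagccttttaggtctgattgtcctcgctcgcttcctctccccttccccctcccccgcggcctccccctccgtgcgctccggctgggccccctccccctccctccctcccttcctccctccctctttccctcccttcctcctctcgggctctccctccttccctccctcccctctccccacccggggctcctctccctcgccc

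Set beside the levels, the gene with the most peaks within 100 kb, *FOXA1*, had a log2 fold change of -0.25 (SE 0.34) on *TRPS1* silencing. The gene without a peak there, *SPDEF*, had -1.31 (SE 0.54), which was -0.40 without control siRNA replicate 1. *TFAP2A* and *GRHL2*, with 3 peaks each, had -0.97 and -0.46, and the 5 genes with 1 peak had values from -0.48 in *GATA3* to 0.72 in *KLF5*. *TRPS1*, with 4, was itself the target of the siRNA. Counted by nearest gene, *FOXA1* and *SPDEF* both had 0 peaks. Whether the fold changes follow the number of peaks was not tested. The antisense genes *GATA3-AS1*, *TFAP2A-AS1*, *TFAP2A-AS2* and *TRPS1-AS1* overlap 3 of the 10 genes. *GRHL2* is overlapped by *GRHL2-DT*, *LOC100131593* and *LOC124901995*. Because no source used here states a strand setting for the counts, reads of such overlapping genes could not be told apart.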

How the data were processed

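T47D libraries were grouped by the siRNA in their labels (2 each of control, *TRPS1* and *CHD4* siRNA). Labels name an siRNA for *CHD4*, while the paper's RNA-seq methods name an shRNA. Per the paper's methods the authors used STAR for alignment and HTSeq for gene counts, and these counts were deposited unnormalized. Peaks were called with MACS2 after BWA alignment and deposited as positions without a score, in hg38 per the submitters' processing notes. The annotation, the strand setting and pooling of ChIP replicates were not given in the sources used here.

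Genes over 2 CPM in at least 2 of 4 libraries were fitted with edgeR (4.0.16, R 4.3.3) quasi-likelihood tests, TMM factors and a prior count of 0.125, with Benjamini-Hochberg adjustment over all genes tested. SE is the size of the log2 fold change over the square root of F. The p-values measure only the spread between these samples. Alternatives were the likelihood ratio test, DESeq2 (1.42.0), other scalings, filters and prior counts, 1 fit of 6 libraries, a replicate block, other windows and leaving out each library. The fit was tested on simulated data. Peaks were joined to RefSeq genes in Python 3.11.15 (pandas 2.3.3, matplotlib 3.10.9), with the strands of *TRPS1*, *TFAP2C* and *GRHL2* taken from general knowledge. Without replicate values, counting intervals were not used for peaks.

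The 10 genes and the lists were chosen with earlier results of these data known. Named were the 10 genes, *CHD4*, list genes past the threshold or with the 3 lowest p, and the genes most like *TRPS1* and *GATA3*. *FOXA3*, *GATA1*, marker genes of other cell types, *TFAP2E* and those named for a fit without 1 control library were chosen after their values were seen.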

Additional observations from a re-analysis of the deposited data

How the results depend on the processing

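Leaving out 1 library moved the counts against control over a wide range. The highest counts over all genes in both comparisons with control came without control siRNA replicate 2. On *TRPS1* silencing it gave 0 to 2 of the 10 genes past the study's threshold (1 with all libraries), 74 to 4304 of all genes (759), 0 to 6070 at an adjusted p under 0.05 (0) and 0 to 3 of the 10 at that level. On *CHD4* silencing it gave 0 to 2 of the 10, 91 to 3969 of all genes (704), and 0 to 3874 and 0 to 2 at the adjusted p. Between the knockdowns it gave 0 to 1 of the 10, 482 to 724 of all genes (483) and 0 to 103 at the adjusted p. *SPDEF* was called without control siRNA replicate 2 (-1.87 and -1.89 in the comparisons with control) and not without control siRNA replicate 1 (-0.40 and -0.41). It also lost the call, with values still past a fold change of 2, without replicate 1 (-1.60 and -1.59) or replicate 2 (-1.05 and -1.08) of the knockdown. *TRPS1* was called between the knockdowns unless *TRPS1* siRNA replicate 2 (0.82) or *CHD4* siRNA replicate 1 (0.75) was left out.

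Library sizes alone moved the median log2 fold change of all genes to 0.10 and 0.11 against control, with 490 higher and 253 lower calls on *TRPS1* silencing (349 and 410 with TMM) and 458 and 222 on *CHD4* silencing (336 and 368), and called 0 of the 10 on *TRPS1* silencing. Without a filter 2 of the 10 (*TRPS1* and *SPDEF*) and 1359, 1403 and 751 of all genes passed in the 3 comparisons, with 111 and 424 at the adjusted p in the latter pair. The stricter filter gave 313 and the fit of 6 libraries 320 genes between the knockdowns. At the adjusted p the likelihood ratio test gave 34, 58 and 570 genes and DESeq2 39, 50 and 456. Between the knockdowns 1 of the 10, *TRPS1*, passed in both and without a filter.

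The replicate block gave 1221 calls on *TRPS1* silencing and 32, 44 and 3372 genes at the adjusted p, with 5 of the 10 (*TRPS1*, *GATA3*, *FOXA1*, *ELF3* and *TFAP2C*) between the knockdowns. Deviations of same-numbered libraries correlated at 0.0486 (control and *TRPS1* siRNA), 0.00829 (control and *CHD4* siRNA) and 0.616 (both knockdowns). No label says that a number marks a shared batch, so the libraries were not treated as paired.

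The sign of 10 genes turned in some fit without 1 library, with log2 fold changes on *TRPS1* silencing of -0.92 to 0.15 for *GATA3*, -0.04 to 0.24 for *TFAP2C* and -0.68 to 0.26 for *KLF4*. On *CHD4* silencing they were -0.20 to 0.49 for *TRPS1*, -0.11 to 0.52 for *FOXA1*, -0.59 to 0.03 for *GRHL2*, -0.49 to 0.69 for *KLF4* and -0.13 to 0.08 for *KLF5*. Between the knockdowns they were -0.30 to 0.28 for *SPDEF*, -0.13 to 0.82 for *ELF3*, -0.15 to 0.53 for *TFAP2A*, -0.16 to 0.48 for *GRHL2* and -0.23 to 0.89 for *KLF4*. *KLF5* also turned on *CHD4* silencing with library sizes alone (0.09) and the stricter filter (0.01). The cause was not tested.

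A window of 10 kb gave 5 of the 10 genes and 6 peaks, the wider peaks alone gave 13 peaks, and the nearest protein-coding gene, chosen after seeing the data, gave 41. The nearest start site was not run because starts were at hand for only part of the genes. Genes most like *TRPS1* and *GATA3* shared 1 and 0 names with the lists made without control siRNA replicate 1.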
